A study of Mus musculus with 12 samples.

Results

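The genes described here are 32 members of cholesterol handling, taken by symbol from a gene table of 45777 rows. They comprise 18 enzymes that make cholesterol, 5 regulators of the SREBP transcription factors, 4 genes of sterol transport and storage, and 5 genes of the LXR and efflux branch. RNA was sequenced from 12 libraries of mpkCCDc11, a mouse line of kidney cortical collecting duct cells. The series asked how TAZ, a transcriptional coactivator of the Hippo pathway encoded by Wwtr1, acts on the water channel aquaporin-2. Cells were given either control siRNA or TAZ siRNA, and the labels name the transfection reagent DharmaFECT4. Filters carried all cells for 3 days in full medium and for 24 h without serum or hormones. They then received vehicle, or 1e-09 M of dDAVP, a synthetic vasopressin, on the basolateral side. The 4 groups, of 3 libraries each, are called control vehicle, control dDAVP, TAZ vehicle and TAZ dDAVP. The labels list 15 min, 30 min and 24 h of dDAVP without saying which applied here. An siRNA lowers its target only in part, and the cells were a clonal line at passages 11 to 16. Whether replicate libraries stem from different cultures is not stated in the labels, so the p-values measure library-to-library spread that could be technical.

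Cells obtain cholesterol by making it from acetyl-CoA, by taking up lipoproteins, or by releasing it from stored esters. When sterols in the endoplasmic reticulum run low, the escort protein SCAP carries SREBP2 to the Golgi. There SREBP2 is cleaved and goes on to activate genes of synthesis and uptake. When sterols are not low, the INSIG proteins hold SCAP and SREBP2 back. When sterols are plentiful, oxysterols activate the LXR receptors, which turn on the exporters ABCA1 and ABCG1 and the ubiquitin ligase MYLIP, and the enzyme SOAT1 esterifies surplus cholesterol for storage. In collecting duct principal cells, membrane cholesterol is part of the apical membrane into which aquaporin-2 is inserted.

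Promoters of 5 members are shown because these genes carry the main contrasts in the values below. Hmgcs1, Idi1 and Insig1 fell with dDAVP, and Soat1 and Mylip rose. Each run is the 250 bases before the RefSeq start on GRCm38.p6, 5′ to 3′ on the gene's strand. Capitals mark the sterol regulatory element TCACNCCAC and the NF-Y box CCAAT, which reads ATTGG on the other strand, and no marked letters overlap. The windows are chr13:119690101-119690350, plus strand for Hmgcs1, chr13:8885356-8885605, plus strand for Idi1 and chr5:28071162-28071411, plus strand for Insig1. Those of the risen genes are chr1:156474329-156474578, minus strand for Soat1 and chr13:45389492-45389741, plus strand for Mylip.
Hmgcs1: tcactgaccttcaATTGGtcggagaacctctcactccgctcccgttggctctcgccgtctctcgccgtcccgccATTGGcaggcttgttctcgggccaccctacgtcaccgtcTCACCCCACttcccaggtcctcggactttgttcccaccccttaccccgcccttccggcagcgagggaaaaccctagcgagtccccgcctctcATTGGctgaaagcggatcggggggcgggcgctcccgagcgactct
Idi1: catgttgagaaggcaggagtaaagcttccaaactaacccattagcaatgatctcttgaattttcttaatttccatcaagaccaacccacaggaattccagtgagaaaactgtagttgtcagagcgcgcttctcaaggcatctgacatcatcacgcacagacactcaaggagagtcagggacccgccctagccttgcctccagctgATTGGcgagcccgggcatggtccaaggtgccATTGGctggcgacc
Insig1: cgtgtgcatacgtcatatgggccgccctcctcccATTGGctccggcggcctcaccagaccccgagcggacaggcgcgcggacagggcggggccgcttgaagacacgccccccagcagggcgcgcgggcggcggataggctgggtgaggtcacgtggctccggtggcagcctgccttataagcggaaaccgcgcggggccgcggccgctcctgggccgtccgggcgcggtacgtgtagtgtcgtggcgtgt
Soat1: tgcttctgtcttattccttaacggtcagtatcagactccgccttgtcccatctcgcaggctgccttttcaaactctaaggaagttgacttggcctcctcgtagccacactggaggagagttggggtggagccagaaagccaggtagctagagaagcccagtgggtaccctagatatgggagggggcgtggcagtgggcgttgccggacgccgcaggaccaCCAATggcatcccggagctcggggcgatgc
Mylip: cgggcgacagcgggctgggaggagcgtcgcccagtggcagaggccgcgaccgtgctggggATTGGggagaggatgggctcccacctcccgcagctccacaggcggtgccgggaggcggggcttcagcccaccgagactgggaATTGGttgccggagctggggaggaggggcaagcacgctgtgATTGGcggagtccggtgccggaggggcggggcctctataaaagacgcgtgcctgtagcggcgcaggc
The Hmgcs1 window holds the sterol element with its first base at -137 from the start and 3 NF-Y boxes. The sequence after this RefSeq start was not found in the gene's transcripts of GENCODE, another gene annotation. For Idi1, Insig1, Soat1 and Mylip it was found. Idi1 holds 2 NF-Y boxes, Insig1 holds 1, Soat1 holds 1 and Mylip holds 3.

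Motifs were searched on both strands over 250 bases before to 50 after the start, in 32851 RefSeq promoters. Of the 32 members 26 had a promoter in that table, with 35 promoters in all. The sterol element was found in 1 member promoter, that of Hmgcs1, against 1.24% of all promoters and 1.18% of the 14479 promoters of tested genes. With 1 mismatch allowed it was found in 13 of the 35, against 24.2% of all promoters. The NF-Y box was in 22 of the 35, belonging to 21 genes, against 37.4% of all and 37.5% of those of tested genes. It was in the promoters of genes that fell and of genes that rose. The LXR element, a direct repeat of AGGTCA with 4 bases between, was in none of the 35 and in 0.0152% of all. After the changes were known, the cAMP response element TGACGTCA (1.79% of all) and the TEAD site GGAATG (14.7% of all) were also searched, and were found in 0 and in 1 of the 35, the latter at Npc2. A match is a description of letters in this window only.

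Each of the 12 libraries held between 45095331 and 61725339 estimated counts, and 15932 genes were tested. Levels are CPM, counts scaled to library size after TMM normalisation, and each change is a log2 fold change ± SE from 3 against 3 libraries. The threshold for a call was 0.05 on the adjusted p of edgeR's quasi-likelihood test with Benjamini-Hochberg adjustment over all tested genes. Gene positions are those of the deposited table on mm10. Wwtr1, the siRNA's target, read 179, 186 and 177 CPM in the control vehicle libraries, 174, 161 and 164 in control dDAVP, 119, 114 and 116 in TAZ vehicle and 108, 127 and 109 in TAZ dDAVP. It was lower in every TAZ siRNA library than in any control siRNA library, by 0.63 ± 0.05 with vehicle (adjusted p = 4.00e-06) and 0.54 ± 0.05 with dDAVP (adjusted p = 5.54e-06). Aqp2, which dDAVP induces, rose from 0.34 ± 0.00341 to 34.7 ± 8.77 CPM with control siRNA and from 0.0484 ± 0.0838 to 11 ± 2.39 CPM with TAZ siRNA (SD, n = 3). Of 14 principal cell markers, Tfap2b was at 0 and Aqp4 and Elf5 were under 1 CPM in every library. Of the 11 tested, dDAVP raised 7 and lowered 1 in control siRNA, where 9.72% of all tested genes were called higher and 9.48% lower. In TAZ siRNA dDAVP raised 6 and lowered 1, against 6.38% and 4.41% of all. The TAZ siRNA lowered 1 in vehicle, where 3.11% of all were called lower. With dDAVP the TAZ siRNA raised 1 and lowered 4, against 5.77% and 4.97% of all. The summed level of the 14, Aqp2 included, ran from 1903 to 2024 CPM in control vehicle and 2705 to 2854 in control dDAVP. It ran from 1934 to 2152 in TAZ vehicle and 2409 to 2554 in TAZ dDAVP, and the vehicle groups overlapped. Its highest members were the keratin genes Krt8 and Krt18. Their means were 641 and 663 CPM in control vehicle and 943 and 1053 in control dDAVP. With dDAVP in control siRNA the 1 lowered was Scnn1a, at -0.51 ± 0.03 (adjusted p = 2.34e-09). Scnn1b, Scnn1g and Hsd11b2 were not called there. The part of these markers in the results was not tested. The summed level of 4 proximal tubule markers moved with the groups, from 180 to 190 CPM in control vehicle, 153 to 169 in control dDAVP, 139 to 154 in TAZ vehicle and 125 to 136 in TAZ dDAVP. Its called member was Lrp2, a large endocytic receptor, which was lower in all 4 comparisons, at -0.21 ± 0.05 (adjusted p = 0.00314) and -0.17 ± 0.05 (adjusted p = 0.0252) with dDAVP in control siRNA and TAZ siRNA and at -0.34 ± 0.05 (adjusted p = 0.000363) and -0.30 ± 0.05 (adjusted p = 0.00043) with the TAZ siRNA in vehicle and dDAVP. Its defining members Slc34a1 and Slc5a2 were under 1 CPM in all 12 libraries, and the part of this list in the results was not tested. Of 5 intercalated cell markers, Foxi1, Slc26a4 and Kit were at 0 and Slc4a1 was under 1 CPM in every library. Their sum ran from 90.2 to 95.9 CPM in control vehicle and 95.3 to 103 in control dDAVP. It ran from 80.7 to 90.0 in TAZ vehicle and 93.2 to 105 in TAZ dDAVP. Only Atp6v1b1 was tested, and it was called only with dDAVP in TAZ siRNA, at 0.24 ± 0.05 (adjusted p = 0.00272). The part of this list in the results was not tested. Lists of loop and distal tubule, fibroblast, endothelial and immune markers each summed to at most 6.99 CPM, with Slc12a1, Col1a2, Dcn, Kdr and Adgre1 at 0. In bulk RNA, fewer cells of a type and less RNA per cell cannot be told apart.

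Every synthesis enzyme that was called was lower with dDAVP or higher with the TAZ siRNA, and Soat1 and Mylip were called in the opposite directions. With control siRNA, dDAVP raised 2 of the 29 tested members and lowered 7, where 9.72% of all tested genes were called higher and 9.48% lower. With TAZ siRNA it raised 4 and lowered 8, where 6.38% of all were higher and 4.41% lower. The TAZ siRNA raised 10 and lowered 1 in vehicle, against 3.19% and 3.11% of all. In dDAVP it raised 4 and lowered 2, against 5.77% and 4.97% of all. The members were chosen with earlier results of these data known, so these comparisons with all genes are descriptive only. The shares of members called lower with dDAVP, 24.1% and 27.6%, and called higher with the TAZ siRNA in vehicle, 34.5%, were above those of all genes. The shares called higher with dDAVP in control siRNA, 6.9%, and lower with the TAZ siRNA in vehicle, 3.45%, were near them. The remaining shares were 13.8% called higher with dDAVP in TAZ siRNA, and 13.8% higher and 6.9% lower with the TAZ siRNA in dDAVP. The count of members raised by the TAZ siRNA in vehicle moved with single libraries. It went from 10 to 5 without control vehicle replicate 2, to 6 without control vehicle replicate 3, and to 4 without TAZ vehicle replicate 2 or 3. The count of members raised by dDAVP in TAZ siRNA went from 4 to 2 without TAZ vehicle replicate 2, where Mylip and Nr1h2 were lost. The count of members lowered by the TAZ siRNA went from 1 to 2 in vehicle without control vehicle replicate 2 or TAZ vehicle replicate 1, and from 2 to 1 in dDAVP without control dDAVP replicate 1 or 3 or TAZ dDAVP replicate 1 or 3, in each case by Mylip. Each group of libraries enters more than 1 comparison, so the comparisons are not independent of each other.

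**Figure D1:**
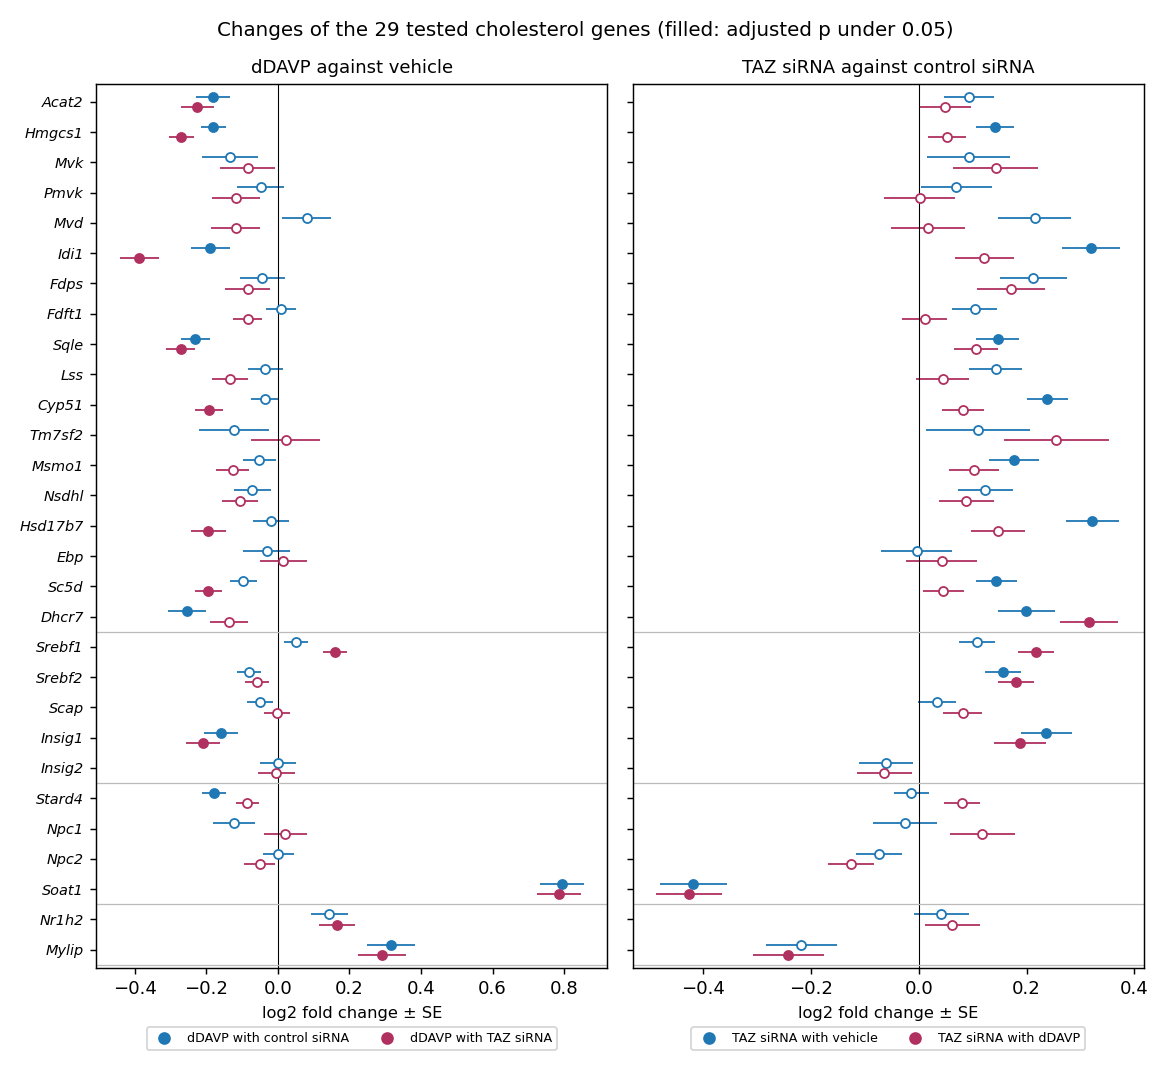
Log2 fold change ± SE (horizontal axis) of the 29 tested members (rows, grouped by role with grey lines) for dDAVP against vehicle (left) and TAZ siRNA against control siRNA (right), with filled points at an adjusted p under 0.05. Enzymes lie mostly left of 0 on the left and right of 0 on the right, and Soat1 stands apart at 0.79 and -0.42.

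The 18 enzymes were all measured and tested. With dDAVP none was called higher, and 5 were called lower with control siRNA and 7 with TAZ siRNA. Of all tested genes, 9.48% and 4.41% were called lower in these comparisons. The enzymes' median change was -0.06 with control siRNA and -0.13 with TAZ siRNA, where the median over all tested genes was 0.00 in both. The TAZ siRNA raised 8 in vehicle and 1 in dDAVP and lowered none, where 3.19% and 5.77% of all were called higher. The 1 in dDAVP is not read as a difference from that share. The median changes were 0.14 and 0.08 against 0.00 over all genes. The summed level of the 18 was 1579.9, 1489 and 1535 CPM in control vehicle and 1432, 1434 and 1424 in control dDAVP. It was 1641, 1774 and 1759 in TAZ vehicle and 1537, 1454 and 1557 in TAZ dDAVP. The TAZ vehicle libraries all lay above the others, the control dDAVP libraries all lay below, and the control vehicle and TAZ dDAVP libraries overlapped. In 14 of the 18 enzymes the group mean was highest in TAZ vehicle and lowest in control dDAVP, an order found in 13.6% of all tested genes. The exceptions were Mvd, Fdft1, Tm7sf2 and Ebp.

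**Figure D2:**
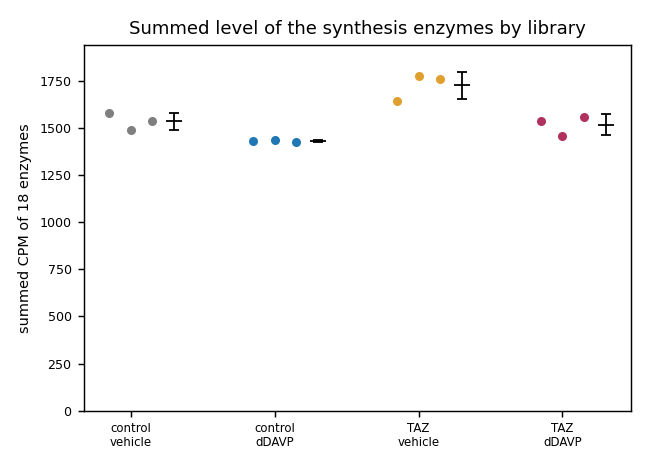
Summed CPM of the 18 synthesis enzymes (vertical axis, from 0) in each library (points) of the 4 groups, with the mean ± SD of 3 libraries in black. The TAZ vehicle libraries sit at 1641 to 1774, above all others, and the control dDAVP libraries at 1424 to 1434, below all others.

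Per length, the enzymes spanned a wide range of levels in control vehicle. Fdps, which makes farnesyl diphosphate, was the highest at 105 ± 3.2 FPKM (SD, n = 3), followed by Hmgcs1 at 73.5 ± 2.69 and Msmo1 at 66.1 ± 2.51 FPKM. The lowest were Hsd17b7 at 5.93 ± 0.193 and Tm7sf2 at 4.23 ± 0.145 FPKM. Fdft1 and Idi1 overlapped within their spread.

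At the start of the pathway, Acat2, the cytosolic thiolase that joins acetyl-CoA units, read 89.4, 85.4 and 90.6 CPM in the control vehicle libraries, 77.5, 79.9 and 76.7 in control dDAVP, 87.8, 94.8 and 101 in TAZ vehicle and 81.9, 76.5 and 83.9 in TAZ dDAVP. Both dDAVP groups lay below their vehicle group without overlap. Acat2 changed by -0.18 ± 0.05 (adjusted p = 0.0103) with dDAVP in control siRNA and by -0.23 ± 0.05 (adjusted p = 0.00326) in TAZ siRNA, and its near copy Acat3, which could share its reads, went from a mean of 12.7 to 11.0 CPM and from 12.8 to 11.8 CPM. Hmgcs1 (gene identifier 208715, chr13:119690351-119708260), the synthase that forms HMG-CoA, read 294, 278 and 269 CPM in the control vehicle libraries, 252, 249.8 and 242 in control dDAVP, 315, 309 and 305 in TAZ vehicle and 255, 250.3 and 265 in TAZ dDAVP. The 4 groups separated except control dDAVP and TAZ dDAVP, which overlapped. It fell by 0.18 ± 0.04 with dDAVP in control siRNA (adjusted p = 0.00137) and by 0.27 ± 0.04 in TAZ siRNA (adjusted p = 4.44e-05). The TAZ siRNA raised it by 0.14 ± 0.04 (adjusted p = 0.0221) in vehicle, a call lost without control vehicle replicate 2 or 3 or TAZ vehicle replicate 1, 2 or 3 (adjusted p = 0.0585 to 0.107). In dDAVP its change with the TAZ siRNA was 0.05 ± 0.04 (adjusted p = 0.403).

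Idi1 (gene identifier 319554, chr13:8885606-8892396), the isomerase that supplies the pathway's allylic building block, had the largest fall with dDAVP among the enzymes in TAZ siRNA. It read 96, 92.8 and 90.9 CPM in the control vehicle libraries, 84.7, 79.2 and 81.5 in control dDAVP, 106, 127 and 116 in TAZ vehicle and 87.4, 85.3 and 94.3 in TAZ dDAVP. The TAZ vehicle libraries were highest and the control dDAVP libraries lowest, and no compared groups overlapped. The changes with dDAVP were -0.19 ± 0.05 (adjusted p = 0.021) in control siRNA and -0.39 ± 0.05 (adjusted p = 9.70e-05) in TAZ siRNA, and the change with the TAZ siRNA in vehicle was 0.32 ± 0.05 (adjusted p = 0.00198). The call in control siRNA was lost without control vehicle replicate 1 or 2 or control dDAVP replicate 2 or 3 (adjusted p = 0.0539 to 0.0858). In dDAVP the TAZ siRNA gave 0.12 ± 0.05 (adjusted p = 0.181), which did not pass.

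Sqle, squalene epoxidase, the first oxygen-dependent and a rate-controlling step, read 142, 132 and 136 CPM in the control vehicle libraries, 116, 116 and 117 in control dDAVP, 143, 156 and 154 in TAZ vehicle and 131, 120.2 and 125 in TAZ dDAVP. The control dDAVP libraries lay within less than 1 CPM of each other and below every other library. Sqle fell by 0.23 ± 0.04 with dDAVP in control siRNA (adjusted p = 0.000472) and by 0.27 ± 0.04 in TAZ siRNA (adjusted p = 0.000161). Its rise with the TAZ siRNA in vehicle was 0.15 ± 0.04 (adjusted p = 0.0381), and was lost without control vehicle replicate 2 or 3 or TAZ vehicle replicate 2 or 3 (adjusted p = 0.101 to 0.206). With the replicate number as a block it also missed the threshold (adjusted p = 0.0506), as it did with only the compared groups in the fit (adjusted p = 0.0711).

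Among the enzymes that trim lanosterol, Cyp51, the lanosterol demethylase, read 140.2, 136 and 135 CPM in the control vehicle libraries, 133, 135 and 134 in control dDAVP, 152, 169.7 and 163 in TAZ vehicle and 146, 136 and 143 in TAZ dDAVP. TAZ vehicle was above all other groups, and the control groups lay close together. Cyp51 changed by 0.24 ± 0.04 (adjusted p = 0.00128) with the TAZ siRNA in vehicle and by -0.19 ± 0.04 (adjusted p = 0.00263) with dDAVP in TAZ siRNA, and by -0.04 ± 0.04 (adjusted p = 0.602) with dDAVP in control siRNA. Hsd17b7, a sterol ketoreductase, read 28.3, 29.8 and 29.6 CPM in the control vehicle libraries, 28.7, 29 and 28.9 in control dDAVP, 34.6, 36.8 and 38.2 in TAZ vehicle and 33, 30.5 and 32.3 in TAZ dDAVP. Its control groups overlapped and both TAZ siRNA groups lay above them. It rose by 0.32 ± 0.05 (adjusted p = 0.000951) with the TAZ siRNA in vehicle, and changed by -0.19 ± 0.05 (adjusted p = 0.0149) with dDAVP in TAZ siRNA, the latter lost without TAZ vehicle replicate 2 or 3 or TAZ dDAVP replicate 2 (adjusted p = 0.0547 to 0.0645). Msmo1, the methylsterol oxidase, read 135, 127 and 135 CPM in the control vehicle libraries, 124, 129 and 129 in control dDAVP, 137, 157 and 154 in TAZ vehicle and 137, 131 and 143 in TAZ dDAVP. The TAZ siRNA libraries lay above the matching control siRNA libraries, while vehicle and dDAVP libraries overlapped. Its rise with the TAZ siRNA in vehicle was 0.18 ± 0.05 (adjusted p = 0.0307), lost without control vehicle replicate 1, 2 or 3 or TAZ vehicle replicate 2 or 3 (adjusted p = 0.06 to 0.194).

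Sc5d, a late desaturase, read 89.3, 84.3 and 81.4 CPM in the control vehicle libraries, 80.3, 80.2 and 78 in control dDAVP, 93.1, 96.8 and 91.8 in TAZ vehicle and 79.4, 82.8 and 84.2 in TAZ dDAVP. Vehicle and dDAVP libraries did not overlap with either siRNA. It changed by -0.19 ± 0.04 (adjusted p = 0.00227) with dDAVP in TAZ siRNA and by 0.14 ± 0.04 (adjusted p = 0.0316) with the TAZ siRNA in vehicle, the latter lost without control vehicle replicate 2 or 3 or TAZ vehicle replicate 1, 2 or 3 (adjusted p = 0.0531 to 0.194). With dDAVP in control siRNA the change was -0.10 ± 0.04 (adjusted p = 0.0957), which passed without control vehicle replicate 3 (adjusted p = 0.0442). Dhcr7, the reductase of the last step to cholesterol, read 37.2, 35 and 38 CPM in the control vehicle libraries, 31.4, 30.4 and 30.6 in control dDAVP, 40.6, 41.5 and 44.4 in TAZ vehicle and 38.5, 35.9 and 40.7 in TAZ dDAVP. The control dDAVP libraries stood below all others, and the TAZ siRNA groups overlapped each other. With all 12 libraries Dhcr7 alone among the enzymes was called with the TAZ siRNA in both treatments, at 0.20 ± 0.05 (adjusted p = 0.0322) in vehicle and 0.32 ± 0.05 (adjusted p = 0.000876) in dDAVP. The vehicle call was lost without control vehicle replicate 1 or 2 or TAZ vehicle replicate 2 or 3 (adjusted p = 0.0809 to 0.165). With dDAVP it changed by -0.25 ± 0.05 (adjusted p = 0.00257) in control siRNA and by -0.14 ± 0.05 (adjusted p = 0.116) in TAZ siRNA.

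**Figure D3:**
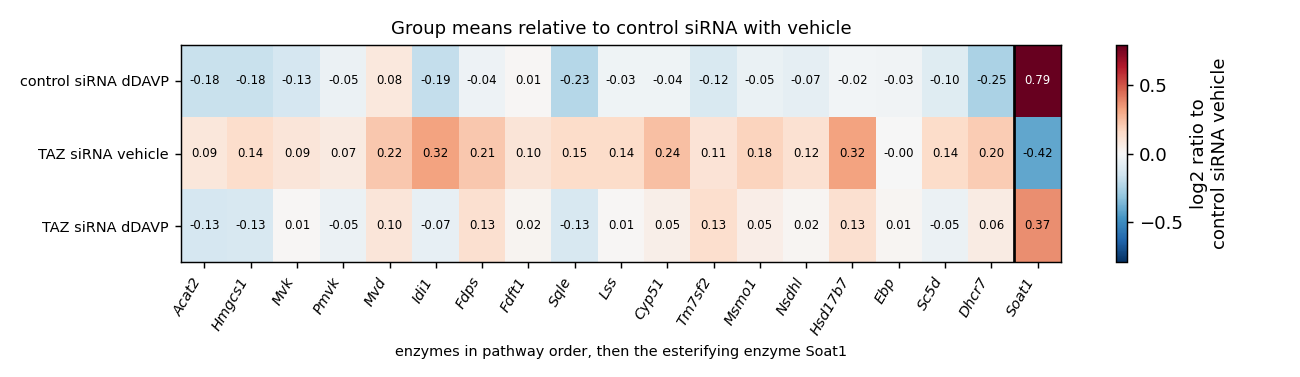
Log2 ratio of each group's mean CPM to the control vehicle mean (colour and number) for the 18 enzymes in pathway order and Soat1, with 1 row for each of the other 3 groups. The TAZ vehicle row is above 0 for every enzyme except Ebp, and Soat1 has the opposite sign in that row at -0.42.

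The other 9 enzymes were Mvk, Pmvk, Mvd, Fdps, Fdft1, Lss, Tm7sf2, Nsdhl and Ebp, and none was called in any comparison. They are the mevalonate kinases and decarboxylase, the prenyl and squalene synthases, lanosterol synthase, and enzymes of sterol reduction, decarboxylation and isomerisation. The nearest to the threshold was Fdps with the TAZ siRNA in vehicle, at 0.21 ± 0.06 (adjusted p = 0.0575). Fdps passed without TAZ vehicle replicate 1 (adjusted p = 0.00185), with DESeq2 (adjusted p = 0.0148) and with upper-quartile factors (adjusted p = 0.043). Mvd, at 0.22 ± 0.07 (adjusted p = 0.0706) in the same comparison, passed without TAZ vehicle replicate 1 (adjusted p = 0.0264), with DESeq2 (adjusted p = 0.044) and with upper-quartile factors (adjusted p = 0.0488). Lss passed there without TAZ vehicle replicate 1 (adjusted p = 0.0424). The TAZ vehicle replicate 1 library had the lowest summed enzyme level of its group.

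The count of enzymes raised by the TAZ siRNA in vehicle rested on single libraries. It fell from 8 to 3 without control vehicle replicate 2, to 4 without control vehicle replicate 3, and to 3 without TAZ vehicle replicate 2 or 3. With only the compared groups in the fit it was 4, with Hmgcs1 (adjusted p = 0.0507), Msmo1 (adjusted p = 0.0559), Sc5d (adjusted p = 0.0667) and Sqle lost. In dDAVP the count went from 1 to 3 without TAZ dDAVP replicate 2, where Fdps (adjusted p = 0.0179) and Hsd17b7 (adjusted p = 0.0487) passed. With dDAVP in TAZ siRNA, Fdps, Lss and Msmo1 passed only without TAZ vehicle replicate 1, at adjusted p = 0.0452, 0.0397 and 0.00632.

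Among the regulators, Insig1 (gene identifier 231070, chr5:28071412-28078662), itself an SREBP target whose protein retains SCAP, was called in all 4 comparisons. It read 83.8, 74.8 and 76.8 CPM in the control vehicle libraries, 69.3, 69 and 72.5 in control dDAVP, 91.9, 94.6 and 91 in TAZ vehicle and 77.3, 76.9 and 86 in TAZ dDAVP. The TAZ vehicle libraries were highest, the control dDAVP libraries lowest, and no compared groups overlapped. It fell by 0.16 ± 0.05 with dDAVP in control siRNA (adjusted p = 0.024) and by 0.21 ± 0.05 in TAZ siRNA (adjusted p = 0.00642). The TAZ siRNA raised it by 0.24 ± 0.05 (adjusted p = 0.0056) in vehicle and by 0.19 ± 0.05 (adjusted p = 0.0159) in dDAVP. The call for dDAVP in control siRNA was lost without control vehicle replicate 1 or control dDAVP replicate 1 or 2 (adjusted p = 0.0713 to 0.157), and that for the TAZ siRNA in dDAVP without control dDAVP replicate 1 or 2 or TAZ dDAVP replicate 3 (adjusted p = 0.0725 to 0.106). Insig2, its relative with the same role, ranged from 27.7 to 31.2 CPM over the 12 libraries and was not called.

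Srebf2 (gene identifier 20788, chr15:82147269-82205379), which encodes SREBP2, read 435, 432 and 444 CPM in the control vehicle libraries, 407, 426 and 407 in control dDAVP, 470.3, 493 and 498 in TAZ vehicle and 475, 451 and 479 in TAZ dDAVP. All 6 TAZ siRNA libraries lay above all 6 control siRNA libraries. It rose with the TAZ siRNA by 0.16 ± 0.03 (adjusted p = 0.00923) in vehicle and by 0.18 ± 0.03 (adjusted p = 0.00183) in dDAVP, the former lost without TAZ vehicle replicate 2 or 3 (adjusted p = 0.0558 to 0.0675). Its changes with dDAVP were -0.08 ± 0.03 (adjusted p = 0.105) in control siRNA and -0.06 ± 0.03 (adjusted p = 0.323) in TAZ siRNA. Srebf1 (gene identifier 20787, chr11:60199084-60224186) encodes SREBP-1a and, from a downstream start that LXR can induce, SREBP-1c. It read 206, 199 and 211 CPM in the control vehicle libraries, 214, 216 and 208 in control dDAVP, 217, 216 and 230.5 in TAZ vehicle and 246, 250.3 and 244 in TAZ dDAVP. The TAZ dDAVP libraries were above all others. It rose by 0.16 ± 0.03 (adjusted p = 0.00364) with dDAVP in TAZ siRNA and by 0.22 ± 0.03 (adjusted p = 0.000354) with the TAZ siRNA in dDAVP. In control siRNA its change with dDAVP was 0.05 ± 0.03 (adjusted p = 0.355), and in vehicle its change with the TAZ siRNA was 0.11 ± 0.03 (adjusted p = 0.0653). The last passed with DESeq2 (adjusted p = 0.0356) and with upper-quartile factors (adjusted p = 0.0271). Scap ranged from 76.5 to 85.4 CPM and was not called.

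Transcript models separated the starts of Srebf1. Models at the upstream start (60220627 on chr11) and models at the downstream start (60210471 and 60210485) were summed. The downstream models read 101, 65.7 and 83.2 CPM in control vehicle, 93.7, 73.9 and 76.0 in control dDAVP, 102.0, 88.9 and 80.5 in TAZ vehicle and 79.6, 104 and 108 in TAZ dDAVP. The upstream models read 98.9, 125 and 124 CPM in control vehicle, 110.1, 134 and 126 in control dDAVP, 109, 127 and 149 in TAZ vehicle and 157, 140.2 and 128 in TAZ dDAVP. All 4 groups overlapped for the downstream models. For the upstream models every TAZ dDAVP library except replicate 3 lay above both control groups, and the split between starts varied widely among replicates.

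In transport and storage, Soat1 (gene identifier 20652, chr1:156428108-156474328), the enzyme of the endoplasmic reticulum that esterifies cholesterol, showed the largest changes of all members. It read 111, 99.5 and 111 CPM in the control vehicle libraries, 189.9, 184 and 182 in control dDAVP, 88, 77.3 and 75 in TAZ vehicle and 129, 150.3 and 135 in TAZ dDAVP. The order of the groups was control dDAVP, TAZ dDAVP, control vehicle and TAZ vehicle, and no groups overlapped. It rose 1.73-fold with dDAVP in control siRNA and 1.72-fold in TAZ siRNA. On the log2 scale these were 0.79 ± 0.06 (adjusted p = 1.31e-07) and 0.79 ± 0.06 (adjusted p = 2.73e-07). The TAZ siRNA lowered it by 0.42 ± 0.06 in vehicle (adjusted p = 0.000984) and by 0.43 ± 0.06 in dDAVP (adjusted p = 0.000289). All 4 calls held in every alternative run. The difference of Soat1's dDAVP responses between the siRNAs was -0.01 ± 0.09 (adjusted p = 0.991). Soat1 and Mylip were the members with the mean highest in control dDAVP and lowest in TAZ vehicle, an order found in 13.7% of all tested genes.

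Stard4, a cytosolic sterol carrier that SREBP2 induces, read 110.4, 114 and 107 CPM in the control vehicle libraries, 97.8, 97.5 and 97.5 in control dDAVP, 111, 111 and 106 in TAZ vehicle and 103, 104 and 102 in TAZ dDAVP. The control dDAVP libraries were lowest and lay close together, and the vehicle groups overlapped. It fell by 0.18 ± 0.03 with dDAVP in control siRNA (adjusted p = 0.000754), and changed by -0.09 ± 0.03 (adjusted p = 0.113) in TAZ siRNA. With the TAZ siRNA it changed by -0.01 ± 0.03 (adjusted p = 0.877) in vehicle and 0.08 ± 0.03 (adjusted p = 0.141) in dDAVP. Npc1 and Npc2, which move cholesterol out of lysosomes, were not called. Npc1 ranged from 23.0 to 27.9 CPM and Npc2 from 177 to 215 CPM. Npc1 passed for dDAVP in control siRNA only without control vehicle replicate 1 (adjusted p = 0.0403). Npc2, at -0.13 ± 0.04 (adjusted p = 0.0705) with the TAZ siRNA in dDAVP, passed with DESeq2 (adjusted p = 0.0359), with no low-count filter (adjusted p = 0.0487) and with only the compared groups (adjusted p = 0.0352).

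The exporters of the LXR branch were not detected. Abca1 (chr4:53030789-53159988) and Abcg1 (chr17:31057694-31117984) had 0 counts in all 12 libraries and in all of their transcript models. A count of 0 allows up to 3 counts, which is 0.0486 to 0.0665 CPM by library, for counting error only. The counts are estimates, so the true limit could be higher. Nr1h3, which encodes LXR-alpha, had either 0 or 4 to 8 counts per library and 58 in all, too few to be tested. Nr1h2 (gene identifier 22260, chr7:44549616-44553968), which encodes LXR-beta, read 46, 45.5 and 49.4 CPM in the control vehicle libraries, 52.8, 49.8 and 53.1 in control dDAVP, 48.8, 45.9 and 50.4 in TAZ vehicle and 57.6, 52 and 52.9 in TAZ dDAVP. Each dDAVP group lay above its vehicle group, and the siRNA groups overlapped. With dDAVP it changed by 0.14 ± 0.05 (adjusted p = 0.0586) in control siRNA and rose by 0.17 ± 0.05 (adjusted p = 0.0466) in TAZ siRNA. The first passed without control vehicle replicate 3 (adjusted p = 0.0321) and in 4 other settings (DESeq2, upper-quartile factors, replicate block and only the compared groups, adjusted p = 0.0316 to 0.0443). The second was lost without TAZ vehicle replicate 1 or 2 or TAZ dDAVP replicate 1 or 3 (adjusted p = 0.0642 to 0.246), with no low-count filter (adjusted p = 0.0909) and with only the compared groups (adjusted p = 0.0895).

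Mylip (gene identifier 218203, chr13:45389742-45411940), an LXR target whose product sends lipoprotein receptors to degradation, had its group means in the same order as Soat1. It read 51.2, 44.1 and 48.8 CPM in the control vehicle libraries, 62.6, 58.4 and 58.7 in control dDAVP, 44.9, 39.3 and 39.8 in TAZ vehicle and 48.9, 55.4 and 47.6 in TAZ dDAVP. Control dDAVP was highest, and the vehicle groups overlapped. It rose by 0.32 ± 0.07 (adjusted p = 0.00229) with dDAVP in control siRNA and by 0.29 ± 0.07 (adjusted p = 0.00714) in TAZ siRNA, the latter lost without TAZ vehicle replicate 2 (adjusted p = 0.0571). The TAZ siRNA lowered it by 0.24 ± 0.07 in dDAVP (adjusted p = 0.0249), a call lost without control dDAVP replicate 1 or 3 or TAZ dDAVP replicate 1 or 3 (adjusted p = 0.0543 to 0.118). In vehicle its change was -0.22 ± 0.07 (adjusted p = 0.0626), which passed without control vehicle replicate 2 or TAZ vehicle replicate 1 (adjusted p = 0.0126 to 0.032) and with DESeq2 (adjusted p = 0.0246).

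**Figure D4:**
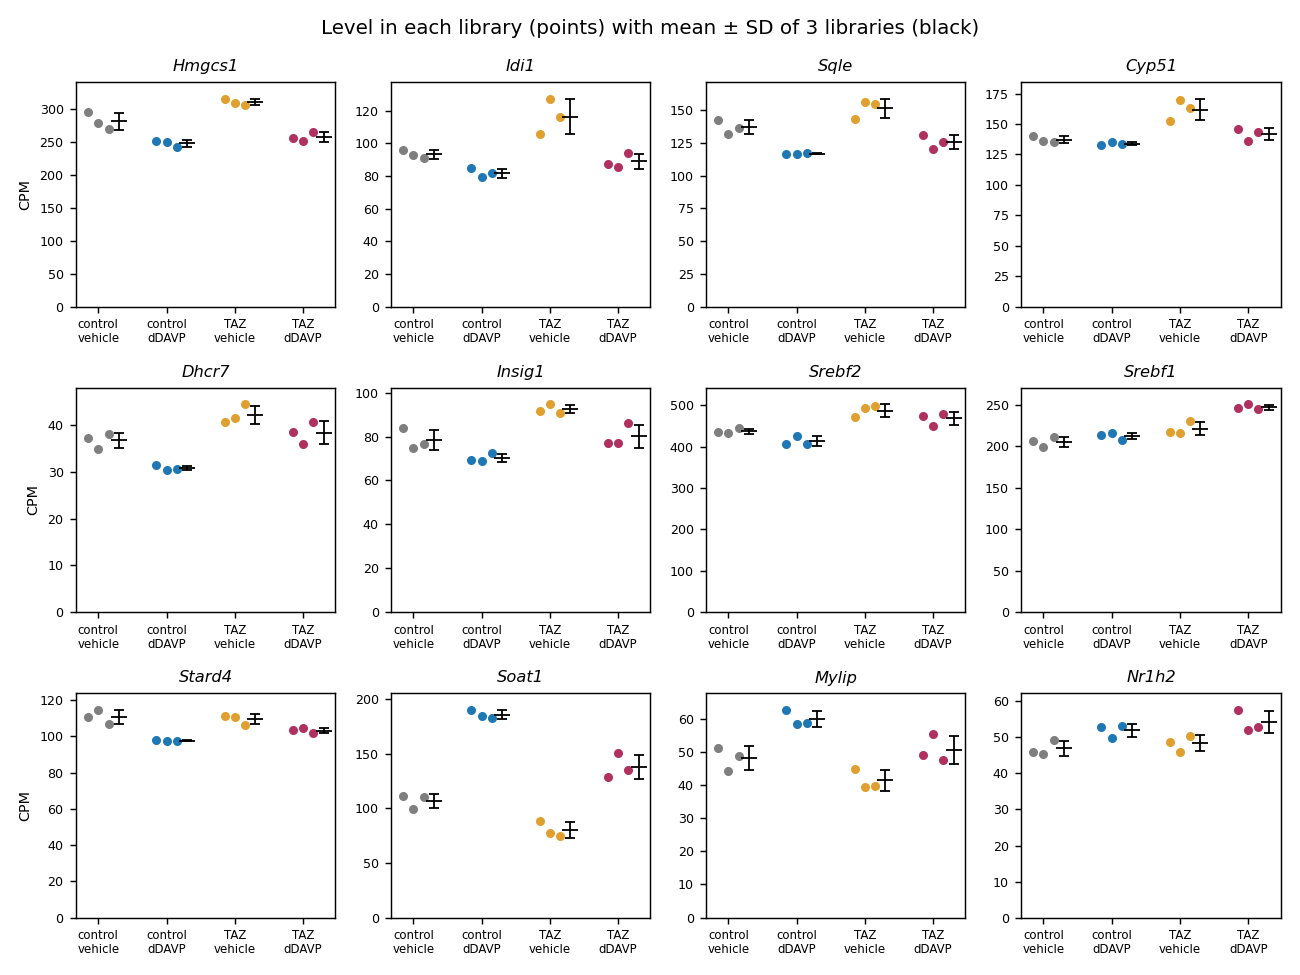
CPM (vertical axes, from 0) of 12 members in each library (points) of the 4 groups, with the mean ± SD of 3 libraries in black. The group means of Hmgcs1, Idi1, Sqle and Insig1 are lowest in control dDAVP and highest in TAZ vehicle, and Soat1 and Mylip show the reverse.

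No member's response to dDAVP was called as different between the siRNAs. The test of that difference called 0.0126% of all genes higher and 0.0188% lower, and its smallest adjusted p among the 29 members was 0.434, for Cyp51. DESeq2 and limma-voom called 0 members. At an unadjusted p under 0.05 the test held 4 of the 29 members. The share of all genes at that unadjusted level was not taken, so the 4 are not read as a difference from it. They were Cyp51 at -0.16 ± 0.05, Idi1 at -0.20 ± 0.08, Hsd17b7 at -0.17 ± 0.07 and Srebf1 at 0.11 ± 0.05. A negative value is a more negative log2 change with dDAVP in TAZ siRNA.

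Other genes of the pathway were counted in 5 lists. Of 8 genes of SREBP cleavage and sterol-regulated degradation, all tested, dDAVP lowered 2 in control siRNA and 0 in TAZ siRNA, and the TAZ siRNA lowered 0 in vehicle and 1 in dDAVP. None was called higher. Of all tested genes, 9.48% and 4.41% were called lower with dDAVP in control siRNA and TAZ siRNA, and 3.11% and 4.97% with the TAZ siRNA in vehicle and dDAVP, and counts this small are not read as a difference from those shares. The 2 were the protease gene Mbtps2, at -0.19 ± 0.05 (adjusted p = 0.0131), and Erlin2, at -0.12 ± 0.03 (adjusted p = 0.0134), and the 1 was Erlin1, at -0.12 ± 0.04 (adjusted p = 0.0472). Mbtps2 was lost without control vehicle replicate 1 or control dDAVP replicate 3 (adjusted p = 0.0501 to 0.0582) and Erlin1 without any 1 of the 6 compared libraries (adjusted p = 0.0557 to 0.165), and in 3 of the 7 other settings (adjusted p = 0.0607 to 0.0691). Other calls appeared in single settings. Mbtps2 was lower with dDAVP in TAZ siRNA without TAZ dDAVP replicate 2 (adjusted p = 0.0338), Erlin2 was lower with the TAZ siRNA in vehicle without TAZ vehicle replicate 1 (adjusted p = 0.0183), and DESeq2 called 3 in place of 2 lower with dDAVP in control siRNA, with Mbtps1 added.

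Of 10 genes of acetyl-CoA supply and the isoprenoid branches, dDAVP raised 2 in control siRNA, the ubiquinone gene Coq2 at 0.23 ± 0.04 (adjusted p = 0.0015) and the prenyltransferase subunit Fnta at 0.15 ± 0.04 (adjusted p = 0.0188). In TAZ siRNA none was called with dDAVP, but without TAZ dDAVP replicate 1 (adjusted p = 0.029) Pdss1 was called lower. The TAZ siRNA raised Pdss1 at 0.36 ± 0.10 (adjusted p = 0.034) and lowered Fntb at -0.15 ± 0.04 (adjusted p = 0.0487) in vehicle, and lowered Fnta at -0.21 ± 0.04 (adjusted p = 0.00283) in dDAVP. Of all tested genes 9.72% were called higher with dDAVP in control siRNA, 3.19% were higher and 3.11% lower with the TAZ siRNA in vehicle, and 4.97% were lower with it in dDAVP. Of the calls in this list, Fnta with dDAVP was lost without control vehicle replicate 1 or 2 or control dDAVP replicate 1 or 2 (adjusted p = 0.05002 to 0.0884). Pdss1 was lost without control vehicle replicate 1 or 2 or TAZ vehicle replicate 2 or 3 (adjusted p = 0.0788 to 0.149) and Fntb without control vehicle replicate 1 or 3 or TAZ vehicle replicate 1 or 2 (adjusted p = 0.0947 to 0.2). In the other settings Pdss1 was lost with the replicate block (adjusted p = 0.0508), and Fntb in 5 of 7 (adjusted p = 0.0542 to 0.0912).

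Of 14 genes of sterol transport and ester turnover, 13 were tested. With dDAVP 3 were higher and 4 lower in control siRNA, and 4 higher and 1 lower in TAZ siRNA. With the TAZ siRNA 1 was higher and 1 lower in vehicle, and 3 higher and 2 lower in dDAVP. The shares of all tested genes called higher and lower were 9.72% and 9.48%, 6.38% and 4.41%, 3.19% and 3.11%, and 5.77% and 4.97%, in the same order. Lrp1, an endocytic receptor for lipoproteins, changed by -0.32 ± 0.03 (adjusted p = 1.47e-06) and -0.18 ± 0.03 (adjusted p = 0.00102) with dDAVP. With the TAZ siRNA it changed by 0.20 ± 0.03 (adjusted p = 0.00151) and 0.34 ± 0.03 (adjusted p = 7.05e-06). Scarb2, a lysosomal membrane protein, rose with dDAVP by 0.50 ± 0.06 (adjusted p = 3.85e-05) and 0.47 ± 0.07 (adjusted p = 0.000123). Nceh1, a cholesterol ester hydrolase, rose by 0.32 ± 0.06 (adjusted p = 0.00129) and 0.40 ± 0.06 (adjusted p = 0.000298). Vldlr, another lipoprotein receptor and one that MYLIP targets, changed with the TAZ siRNA by -0.36 ± 0.07 (adjusted p = 0.00365) in vehicle and -0.44 ± 0.07 (adjusted p = 0.000346) in dDAVP. Beyond the 3 genes of smallest p, Vldlr rose with dDAVP in control siRNA by 0.26 ± 0.06 (adjusted p = 0.00848). In TAZ siRNA that change was 0.18 ± 0.07 (adjusted p = 0.0886). Lipa, the lysosomal ester hydrolase, changed by 0.27 ± 0.06 (adjusted p = 0.00535) with the TAZ siRNA in dDAVP.

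The counts of this list moved with single libraries, and the genes behind those moves are named after their values were seen. With dDAVP in control siRNA the count called lower went from 4 to 2 without control vehicle replicate 2 or control dDAVP replicate 2, where Gramd1a (adjusted p = 0.0778 and 0.207) and Lipa (adjusted p = 0.114 and 0.0789) were lost. With dDAVP in TAZ siRNA the count called higher went from 4 to 2 without TAZ vehicle replicate 2 or TAZ dDAVP replicate 1 or 2, with no low-count filter and with only the compared groups. The sterol-binding START domain genes Stard3 (adjusted p = 0.0868 to 0.17) and Stard5 (adjusted p = 0.0646 to 0.191) were lost in these 5 settings. Without TAZ vehicle replicate 1 both were lost as well, and Vldlr was called higher (adjusted p = 0.00763). With the TAZ siRNA in vehicle, leaving out TAZ vehicle replicate 1 gave 2 higher and 2 lower, with Scarb1 (adjusted p = 0.0424) and Scarb2 (adjusted p = 0.0127) added. Scarb2 was also called without control vehicle replicate 2 (adjusted p = 0.0339) and by DESeq2 (adjusted p = 0.0255). With the TAZ siRNA in dDAVP, the count called lower went from 2 to 1 without control dDAVP replicate 1, 2 or 3 or TAZ dDAVP replicate 1 or 3 (adjusted p = 0.0535 to 0.122), where Scarb2 was lost, and the count called higher from 3 to 2 without TAZ dDAVP replicate 1 (adjusted p = 0.0518), where Scarb1 was lost.

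Of 8 LXR partners and targets 7 were tested. With dDAVP 2 were higher and 1 lower with either siRNA, where 9.72% and 9.48% of all tested genes were called with control siRNA and 6.38% and 4.41% with TAZ siRNA. Rxra, the receptor that pairs with LXR, rose by 0.23 ± 0.04 (adjusted p = 0.000492) and 0.30 ± 0.04 (adjusted p = 5.68e-05), and Arl4c by 0.18 ± 0.03 (adjusted p = 0.000463) and 0.19 ± 0.03 (adjusted p = 0.000448). Abca2, a relative of Abca1 in lysosomal membranes, fell, at -0.31 ± 0.03 (adjusted p = 3.75e-06) and -0.13 ± 0.03 (adjusted p = 0.0218). With the TAZ siRNA Rxra was the 1 call in vehicle, at -0.20 ± 0.04 (adjusted p = 0.00498), where 3.11% of all were called lower. In dDAVP Abca2 was higher, at 0.22 ± 0.03 (adjusted p = 0.00035), and Rxra lower, at -0.13 ± 0.04 (adjusted p = 0.0394), where 5.77% and 4.97% of all were called higher and lower. Abca2 with dDAVP in TAZ siRNA was lost without TAZ vehicle replicate 1 or TAZ dDAVP replicate 1 or 3 (adjusted p = 0.0577 to 0.0937), and Rxra with the TAZ siRNA in dDAVP without control dDAVP replicate 1, 2 or 3 or TAZ dDAVP replicate 1 or 3 (adjusted p = 0.051 to 0.184).

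Of 6 oxysterol enzymes 3 were tested. With dDAVP 1 was called higher in control siRNA and 1 in TAZ siRNA, where 9.72% and 6.38% of all tested genes were called higher. With the TAZ siRNA 1 was called lower in vehicle and 1 in dDAVP, where 3.11% and 4.97% of all were called lower. Counts this small are not read as a difference from those shares. Cyp39a1, a hydroxylase of oxysterols, was 0.18 ± 0.05 (adjusted p = 0.0159) with dDAVP in control siRNA, -0.17 ± 0.05 (adjusted p = 0.0496) with the TAZ siRNA in vehicle and -0.22 ± 0.05 (adjusted p = 0.00859) with it in dDAVP. These were lost without control vehicle replicate 1 or 2 or control dDAVP replicate 2 (adjusted p = 0.056 to 0.121), without control vehicle replicate 1, 2 or 3 or TAZ vehicle replicate 2 or 3 (adjusted p = 0.0894 to 0.213) and without control dDAVP replicate 2 or TAZ dDAVP replicate 1 (adjusted p = 0.05002 to 0.0529). The call in vehicle was also lost in 5 of the 7 other settings (adjusted p = 0.0507 to 0.0756). Hsd3b7, of bile acid synthesis, was 0.28 ± 0.09 (adjusted p = 0.0466) with dDAVP in TAZ siRNA and was lost without any 1 of the 6 compared libraries (adjusted p = 0.0523 to 0.197), and in 3 of the 7 other settings (adjusted p = 0.0505 to 0.0701).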

How the data were processed

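The files the authors deposited for 12 libraries were analysed. Per the labels' protocols a TruSeq stranded mRNA kit was used, and another TruSeq RNA kit is named beside it. The submitters' processing notes list Bowtie 0.12.2, mm8 and mm10, with no role. Which tool counted the reads, and whether by strand, is not given in these sources. The gene table that the authors deposited holds estimated counts, written as whole numbers and not normalised. The transcript table that the authors deposited holds FPKM, per the file headers, summed here per gene. It also holds estimated counts, which were used for the transcript models. No use was made of 36 further columns.

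In R 4.3.3, edgeR 4.0.16 kept 15932 of 45777 genes (filterByExpr, minimum count 10), scaled them by TMM factors of 0.988 to 1.01, and fitted 1 mean per group to all 12 libraries by robust quasi-likelihood. SE is the size of the log2 fold change over the root of F. The fit was tested on simulated data. Alternatives were DESeq2 1.42.0, limma 3.58.1 with voom, other scalings, no filter, only the compared groups, a replicate block and leaving out each library. The members and lists were chosen with earlier results of these data known. Values per library are given for members called in at least 1 comparison, and other lists by up to 3 called genes of smallest p. Replicate libraries differed by more than sampling noise. Promoter sequences are from RefSeq on GRCm38.p6.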

Additional observations from a re-analysis of the deposited data

How the results depend on the processing

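Among the 38 calls of members, 25 held in every alternative and none reversed. DESeq2, other size factors (RLE), upper-quartile factors and limma-voom kept all 38, no low-count filter and the replicate block 37 each, and only the compared groups 33. The replicate block changed the call of Sqle with the TAZ siRNA in vehicle. It also brought in Nr1h2 with dDAVP in control siRNA. Correlations of same-numbered libraries ran from -0.043 to 0.0732, under the 0.1 set for pairing, though in 2 of the 4 comparisons all 3 numbers matched their own number best, a hint from the data and not from the design. Fitted to only the compared groups, the TAZ siRNA in vehicle raised 6 members in place of 10, and with DESeq2 it lowered 2 in place of 1. Leaving out 1 library gave 4 to 11 raised and 1 to 2 lowered there, with 410 to 1435 of all genes called in place of 1004. For dDAVP in TAZ siRNA it gave 2 to 4 members raised and 1118 to 1752 genes in place of 1719. For the TAZ siRNA in dDAVP it gave 1 to 2 members lowered and 1049 to 1625 genes in place of 1711. For the difference of the dDAVP responses, 5 genes were called. It was 12 with no filter, 70 with DESeq2 and 3 to 16 without 1 library. The causes of these shifts were not tested. Fits without 1 library also hold fewer libraries, and the part of that was not tested. At this depth Abca1 and Abcg1 were not detectable and Nr1h3 could not be tested.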
